A study of Mus with 2 samples.

Results

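The interferon-inducible GTPases examined here are 10 mouse genes, chosen by name: Gbp2, Gbp3, Gbp4, Gbp5, Gbp6, Gbp7 and Gbp9 of the guanylate-binding protein (GBP) family, and Igtp, Irgm1 and Iigp1 of the immunity-related GTPase (IRG) family. All 10 were found by symbol among the 32285 features counted in each section, and each had UMIs in both sections. They were measured on 2 sections of subcutaneous CT26 tumors, a mouse colon carcinoma line, grown from 200000 cells placed in female balb/c mice aged 6 to 8 weeks and collected on day 15. The control mouse received PBS, and the rIL7 mouse received 10 µg of recombinant mouse IL-7 (rIL7) intraperitoneally on day 11 and again on day 13. The assay was Visium, which counts unique molecular identifiers (UMIs) of polyadenylated RNA on a grid of barcoded spots over a 10 µm frozen section. Each group holds 1 section, so there is no replicate check and no test of treatment is possible. The tumors come from a transplanted cell line, and a spot can hold several cells of different types, so less RNA per cell and fewer cells of a type cannot be told apart.

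GBP and IRG proteins are large GTPases that interferons induce in macrophages and in many other cells. They assemble on membranes of vacuoles that contain bacteria or parasites, and help to break these open or to start inflammasome responses. Interferon gamma, a product of activated T and NK cells, is their classical inducer, while type I interferons induce part of the family. Among IRG proteins, Irgm1 and Igtp (Irgm3) are regulators that sit on the cell's own membranes, and Iigp1 (Irga6) is an effector loaded on parasite vacuoles.

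The GBP members lie in a pair of gene clusters. On GRCm38, with RefSeq gene spans, Gbp5 (chr3:142496934-142522344), Gbp7 (chr3:142530336-142550151) and Gbp3 (chr3:142560016-142573213) are direct neighbours, and Gbp2 (chr3:142620663-142638008) follows after Gbp2b. Gbp9 (chr5:105076464-105110357) and Gbp4 (chr5:105115767-105139586) are neighbours on chromosome 5, and Gbp6 (chr5:105270702-105295871) follows after Gbp10. Irgm1 (chr11:48865245-48871420) and Igtp (chr11:58199556-58207592) lie apart on chromosome 11, and Iigp1 lies on chromosome 18 (60373616 to 60392634). All are annotated as protein coding. Several genes of these clusters are near-identical copies, and reads shared between copies could be assigned to a neighbour or dropped, so the level of any single member is less certain than the sum of the family.

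The control section had 2219 kept spots and 22951678 UMIs, and the rIL7 section 1950 kept spots and 25729233 UMIs. The median spot held 9623 and 12921.5 UMIs, a factor of 1.34. Both sections were laid on the same array layout, and 1702 spot barcodes occur in both. T cell markers (Cd3d, Cd3e, Cd3g, Trac, Cd8a, Cd8b1) summed to 31.2 UMIs per 1000000 UMIs (CPM) over the control tissue and to 105.9 CPM under rIL7. Macrophage markers (8 genes) summed to 3535 and 4315 CPM, and the CT26 markers Rpl39l and Baiap2l1 to 1293 and 1043 CPM, so tumor and macrophage RNA was present in both. Skeletal muscle markers summed to 30.2 and 1.59 CPM and keratinocyte markers to 58.4 and 37.6 CPM. Of the latter, named after their values were seen, Krt5 had 196 control and 0 rIL7 UMIs and Krt14 250 and 1.

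All 10 GTPase genes had a higher level in the rIL7 section than in the control section. Their sum was 439 CPM in the control (95% interval 431 to 448, counting error only) against 947 CPM under rIL7 (935 to 959), a ratio of 2.16 (2.11 to 2.21). Split into 4 quadrants at the median array row and column, the control ranged from 363 to 599 CPM and the rIL7 section from 842 to 995 CPM, so the quadrants did not overlap. Quadrants are pieces of 1 tumor and not replicates. Of the 10 members, 10 had a ratio of at least 1.5, against 4.79% of 12046 genes with at least 100 UMIs. At least 2-fold was reached by 5 of 10, against 2.27% of genes. Quadrant levels lay apart, higher in rIL7, for 10 of 10 members, against 10.2% of genes. The median log2 ratio was 1.09 over the members and -0.00 over all 14296 genes with at least 20 UMIs.

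The GBP genes of chromosome 5 held the largest ratio among the members. Gbp6 went from 20.6 CPM (control) to 56.7 CPM (rIL7), a ratio of 2.75 (2.48 to 3.06). Gbp4, which had the most UMIs of the 10 in both sections, went from 83.2 to 211 CPM, a ratio of 2.54 (2.41 to 2.67). Gbp9, their neighbour, differed much less, with 32.5 and 51.4 CPM and a ratio of 1.58 (1.44 to 1.73). The interval of Gbp9 lay below those of Gbp6 and Gbp4, which overlapped. Over quadrants Gbp6 ranged from 14.9 to 28.8 CPM and from 52.8 to 60.01 CPM, Gbp4 from 69.0 to 102 CPM and from 190 to 229 CPM, and Gbp9 from 28.5 to 41.0 CPM and from 46.8 to 54.3 CPM.

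In the chromosome 3 cluster, Gbp2 and Gbp5 had the higher ratios, though the interval of Gbp5 overlapped with those of Gbp3 and Gbp7. Gbp2, a GBP that coats pathogen vacuoles, went from 43.4 to 105 CPM, a ratio of 2.43 (2.25 to 2.61). Gbp5, which has been tied to inflammasome assembly, was the scarcest member with 93 and 257 UMIs, or 4.05 and 9.99 CPM, a ratio of 2.47 (1.94 to 3.16). Gbp3 and Gbp7 were lower in this order: Gbp3 went from 38.8 to 70.1 CPM (1.81, 1.67 to 1.96) and Gbp7 from 40.7 to 75.9 CPM (1.86, 1.72 to 2.02). Summed, the 7 GBP genes had a ratio of 2.20 (2.14 to 2.27).

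Among the 3 IRG members, Iigp1 differed more between sections than Igtp and Irgm1. Iigp1 went from 71.9 to 187 CPM, a ratio of 2.60 (2.46 to 2.75). Igtp went from 63.1 to 116 CPM, a ratio of 1.84 (1.73 to 1.96), and Irgm1 from 40.7 to 63.1 CPM, a ratio of 1.55 (1.43 to 1.68), the smallest of the 10. Summed, the 3 IRG genes had a ratio of 2.08 (2.01 to 2.16). Ordered by ratio, the members ran Gbp6, Iigp1, Gbp4, Gbp5, Gbp2, Gbp7, Igtp, Gbp3, Gbp9 and Irgm1. The first 5 had overlapping counting intervals with their neighbours, and so did Gbp7, Igtp and Gbp3. Gbp3 also overlapped with Gbp9 and Gbp9 with Irgm1. The lower limit of Gbp2 (2.25) lay above the upper limit of Gbp7 (2.02). The wide interval of Gbp5 (1.94 to 3.16) reached into those of Gbp7, Igtp and Gbp3. Ranked among the 12046 genes, Gbp6 was exceeded by 131 genes and Irgm1 by 521.

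**Figure D1:**
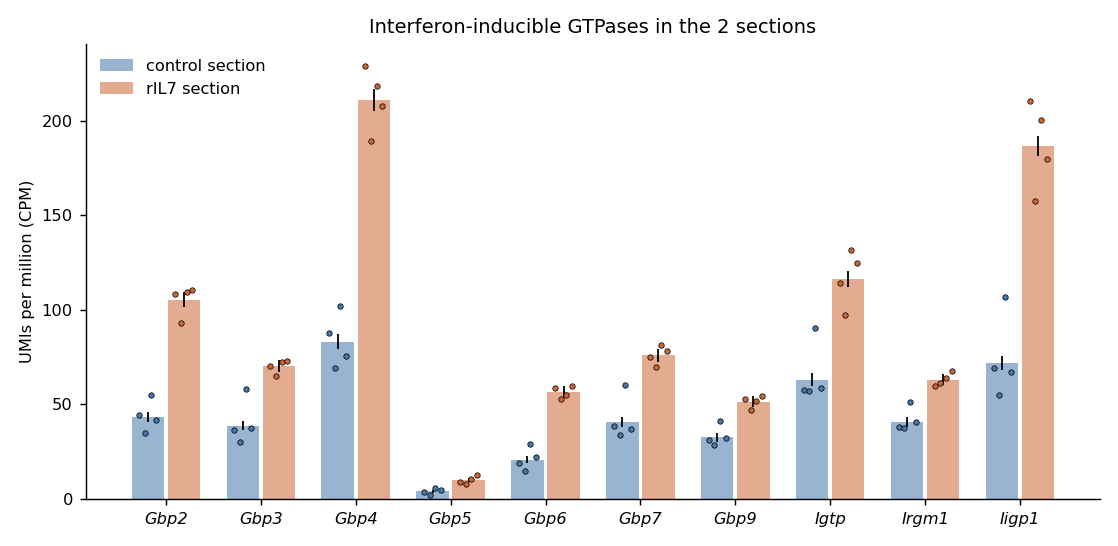
Level of each GTPase gene in UMIs per 1000000 UMIs (CPM) in the control (blue) and rIL7 (orange) section; bars give the whole section, black lines the 95% counting interval, and points the 4 quadrants of a section. For each of the 10 genes every rIL7 quadrant lies above every control quadrant.

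The GTPase transcripts were spread through the rIL7 tumor, not held by a few spots. After thinning every spot to 5900 UMIs, which left out 217 control and 81 rIL7 spots below that depth, at least 1 UMI of a member was found in 86.8% of control spots (95% binomial interval 85.2 to 88.2) and 98.6% of rIL7 spots (98.0 to 99.1). Without thinning the shares were 93.2% and 99.9%. The median control spot held 2 member UMIs and the median rIL7 spot 5, and the highest spot 22 and 29. Gbp4 was seen in 35.8% and 67.7% of spots, Iigp1 in 33.1% and 63.2%, and Gbp5 in 2.35% and 6.37%. Without thinning these shares were 50.7% and 86.3% for Gbp4, 46.4% and 84.2% for Iigp1, and 3.83% and 12.2% for Gbp5.

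**Figure D2:**
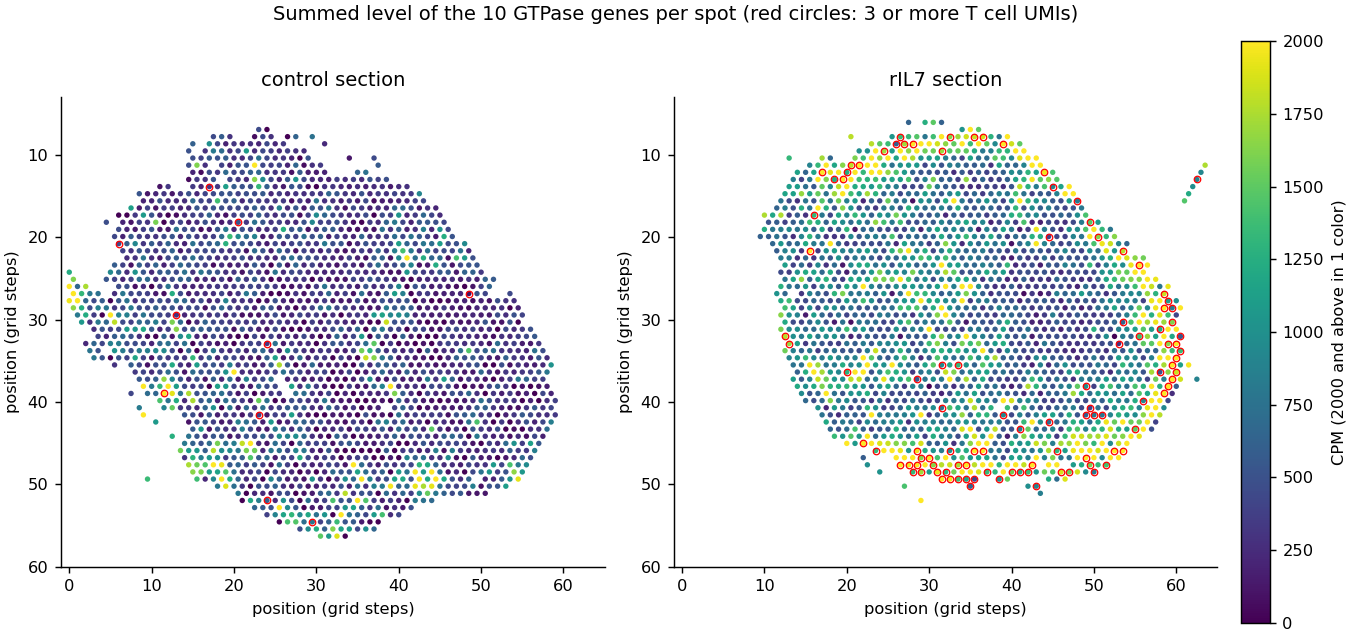
Summed level of the 10 GTPase genes in each spot (color, CPM, values of 2000 and above in 1 color) over the control section (left) and rIL7 section (right), with positions in grid steps; red circles mark spots with 3 or more T cell UMIs at 5900 UMIs per spot, 10 of them control spots and 104 rIL7 spots. High spots form a band along much of the rIL7 outline, and few and scattered patches in the control.

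GTPase levels were higher along the tissue edge than inside it in both tumors, and by a larger factor in the rIL7 tumor. Edge spots lie on the first or second step in from the outline of the main tissue piece (401 control, 330 rIL7), and interior spots the rest of that piece (1806 and 1599). The control sum was 527 CPM along the edge and 416 CPM inside, a ratio of 1.27 (1.21 to 1.33), with quadrant ratios from 1.01 to 1.69. The rIL7 sum was 1448 CPM along the edge and 854 CPM inside, a ratio of 1.70 (1.65 to 1.75), with quadrant ratios from 1.31 to 2.31. The quotient of these edge ratios, rIL7 over control, was 1.34 (1.27 to 1.41, counting error only), although the ranges of the quadrants overlapped.

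By gene, 9 of the 10 members were at least 1.5-fold higher at the rIL7 edge than in its interior, against 8.19% of 11113 genes. In the control 0 of the 9 members with at least 100 UMIs reached that fold, against 1.18% of 10890 genes. Gbp5, the member under that minimum, had 27 edge and 65 interior UMIs there, with a ratio of 1.71 (1.05 to 2.71). Under rIL7 Gbp5 had the highest edge ratio of the 10, 2.37 (1.79 to 3.11), at 19.6 and 8.28 CPM. That ratio rested on 77 edge UMIs, and its quadrant ratios ran from 0.928 to 5.12. Its interval overlapped with that of Gbp3 (1.73 to 2.14), so this rank is uncertain. With an edge of 1 step, Gbp6 (1.48), Igtp (1.499), Irgm1 (1.37), Iigp1 (1.399) and Gbp9 (1.08) were under 1.5-fold in the rIL7 section.

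Gbp4 showed the largest change of edge ratio between the sections. Control edge and interior held 85.2 and 82.6 CPM, a ratio of 1.03 (0.920 to 1.15). Those of the rIL7 tumor held 339 and 188 CPM, a ratio of 1.80 (1.69 to 1.92), so the quotient of the ratios was 1.75 (1.54 to 1.98). Gbp9 was the exception on the other side. Its edge ratio was 1.25 (1.04 to 1.48) without and 1.16 (1.002 to 1.34) with rIL7, and the quotient of 0.931 (0.746 to 1.16) had 1 within its interval. For the other 8 members the quotient lay between 1.19 (Iigp1) and 1.46 (Gbp6), and only for Gbp5 did its interval (0.823 to 2.34) reach below 1.

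The decline from the outline inwards was steep over the outer steps of the rIL7 tumor. Its summed members measured 1402, 1488, 1294 and 1052 CPM at steps 1, 2, 3 and 4, then 905 at steps 5 to 6, 766 at steps 7 to 9 and 710 at steps 10 to 14. In the deepest spots, steps 15 to 21, the level was higher again, at 843 CPM, a ratio of 1.19 (1.14 to 1.24) to steps 10 to 14. The control measured 524, 530, 531 and 467 CPM at steps 1 to 4, then 443 at steps 5 to 6, 443 at steps 7 to 9, 349 at steps 10 to 14 and 333 at steps 15 to 22, with a ratio of 0.954 (0.876 to 1.04) for the deepest spots. The rIL7 level was thus above the control level in every ring.

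Single members followed the sum to different degrees. From step 1 to steps 10 to 14 of the rIL7 section, Gbp4 went from 349 to 159 CPM, Igtp from 168 to 75.7 CPM and Gbp7 from 126 to 51.2 CPM. Gbp9 went from 55.1 to 48.3 CPM over the same span, with its highest value of 66.2 CPM at step 3. The higher level of the deepest rIL7 spots was carried by Gbp2 (ratio 1.25 to steps 10 to 14), Igtp (1.30), Gbp4 (1.21), Iigp1 (1.201) and Gbp7 (1.196), whose intervals lay above 1. Gbp3, Gbp5, Gbp6, Gbp9 and Irgm1 had ratios from 0.952 to 1.13, with intervals that included 1.

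**Figure D3:**
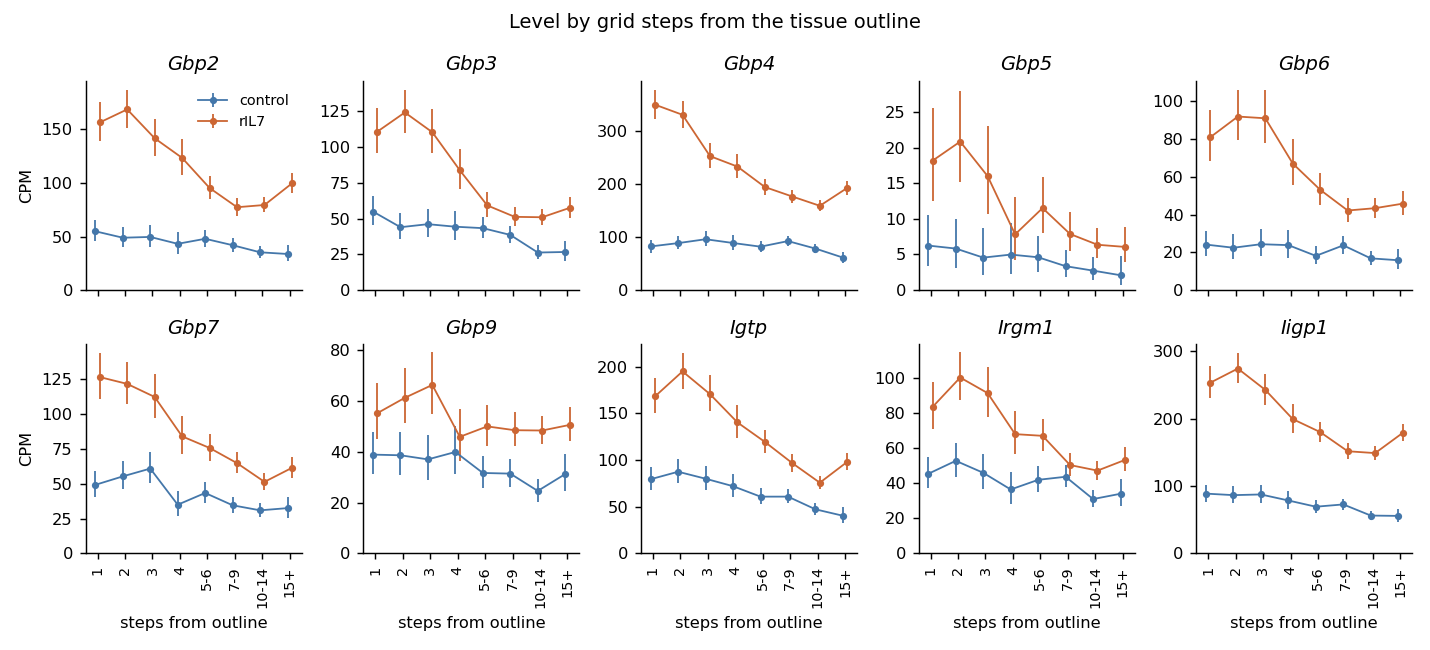
Level (CPM, separate scale for each gene) of each GTPase gene by grid steps from the tissue outline in the control (blue) and rIL7 (orange) section; vertical lines are 95% counting intervals. In the rIL7 section 9 genes decline from the outline, while Gbp9 is nearly flat, and Gbp4 is flat over most of the control.

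Other RNA moved with the rIL7 rim. From step 1 to steps 10 to 14, T cell markers went from 303 to 51.1 CPM, macrophage markers from 7509 to 3757 CPM, and CT26 markers from 718 to 1130 CPM. These 3 lists changed less over the same steps in the control, with 39.3 and 30.8 CPM for T cells, 3616 and 3470 for macrophages and 1213 and 1337 for CT26 cells. Over the edge as a whole, 6 of 6 T cell and 6 of 8 macrophage markers were at least 1.5-fold higher at the rIL7 edge, against 0 and 0 in the control; the background was 12.2% and 3.38% of genes with at least 20 UMIs. Endothelial markers had an edge ratio of 2.36 under rIL7 (4 of 4 genes), monocyte markers of 2.10 (2 of 3), NK cell markers of 1.77 (2 of 4), dendritic cell markers of 1.58 (3 of 4) and fibroblast markers of 1.52 (2 of 5, with 1 lower), and the scarce B cell markers stood at 9.68 CPM against 1.94 CPM (2 of 2). The control edge differed in other lists, with keratinocyte markers at 117.9 CPM against 40.7 CPM (2 of 3 genes) and monocyte markers at 208 CPM against 141 CPM (2 of 3). Skeletal muscle and neutrophil markers were lower there, with ratios of 0.207 and 0.526. The part of any of these lists in the GTPase edge of either section was not tested. Median depth was 11165.5 UMIs per edge spot and 13162 per interior spot under rIL7, and 10901 and 9482 in the control.

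The difference between the sections was present away from the rim as well. In interior spots alone the rIL7 to control ratio of the sum was 2.05 (2.00 to 2.11), and 9 of 10 members reached 1.5-fold, against 3.49% of 11720 genes. The exception was Irgm1, whose ratio of 1.496 (1.36 to 1.64) was just short of that fold. Among edge spots alone the ratio was 2.75 (2.62 to 2.88), and 10 of 10 members reached 1.5-fold, against 8.24% of 9091 genes. Gbp4 was 3.97-fold (3.54 to 4.47) higher at the rIL7 edge than at the control edge, and Gbp9 1.51-fold (1.23 to 1.85).

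Spots with T cell RNA held more GTPase RNA than spots without, by a modest factor. A spot was called T cell positive when it had at least 1 UMI of the 6 T cell markers after thinning to 5900 UMIs, which held for 334 of 2002 control spots (16.7%, 15.1 to 18.4) and 750 of 1869 rIL7 spots (40.1%, 37.9 to 42.4). A negative spot can still hold T cells whose transcripts were not captured at this depth. Control spots held 525 CPM of the summed members where positive and 423 CPM where negative, a ratio of 1.24 (1.16 to 1.33). The rIL7 spots held 1167 and 888 CPM, a ratio of 1.31 (1.27 to 1.36). At least 1.5-fold was reached by 1 of 9 members with 100 UMIs in the control, against 0.881% of 9766 genes, and by 0 of 10 in the rIL7 section, against 3.01% of 9690 genes.

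The control member past that fold was Gbp7, which has been linked to assembly of the phagocyte oxidase, with 62.4 and 40.1 CPM, a ratio of 1.56 (1.26 to 1.91). Under rIL7 Gbp6 (73.7 and 49.8 CPM, 1.48, 1.26 to 1.73) and Gbp3 (90.4 and 61.3 CPM, 1.47, 1.28 to 1.70) came closest to it. Gbp9 was the only rIL7 member with a ratio below 1, with 50.2 CPM in positive and 53.9 CPM in negative spots, a ratio of 0.930 (0.783 to 1.103). That side of 1 was not stable: without thinning the ratio was 1.07, and over 20 other thinning draws it ran from 0.948 to 1.34 with a median of 1.12. Control Gbp9 stood at 43.1 and 30.8 CPM, a ratio of 1.40 (1.09 to 1.79), with 1.08 to 1.58 over those draws.

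Over all rIL7 spots the GTPase level was higher with more T cell UMIs. With 0, 1, 2 and 3 or more T cell UMIs the summed members stood at 888, 1056, 1249 and 1545 CPM. In the control the same classes stood at 423, 518, 579 and 576 CPM, the last over only 10 spots (399 to 805). Gbp4 followed this order in the rIL7 section with 198, 230, 289 and 332 CPM, and so did Igtp with 111, 139, 148 and 189 CPM and Irgm1 with 59.2, 69.3, 93.3 and 125 CPM. Gbp9 did not, with 53.9, 45.5, 61.2 and 53.8 CPM. Of the rIL7 spots with 3 or more T cell UMIs, 64.4% were edge spots, against 6.97% of those with 0, and their macrophage markers stood at 8145 CPM against 3767 CPM. Among edge spots alone the same classes held 1247, 1608, 1692 and 1672 CPM, so the highest class was not above the one before it, and among interior spots 862, 942, 1032 and 1346 CPM. The part of macrophage RNA in this order was not tested.

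Within the rIL7 interior the ratio of positive to negative spots was 1.14, and within the control interior 1.18. Within 3 equal classes of macrophage UMIs it averaged 1.19 under rIL7 and 1.22 in the control, and macrophage markers themselves had a ratio of 1.38 and 1.103. The rIL7 classes were unlike: from the lowest to the highest, positive spots held 924, 929 and 1436 CPM and negative spots 785, 901 and 1042 CPM, and in the highest class 46.6% of positive and 11.5% of negative spots were edge spots. Control classes held 464, 495 and 597 CPM in positive and 362, 445 and 463 CPM in negative spots. Over all spots, adding Trbc2 and Cd4 to the T cell genes lowered the ratio from 1.31 to 1.18 under rIL7. In the control it went from 1.24 to 1.04, so the control ratio depended on which genes marked T cells. Trbc2 was not among the markers, because an earlier result showed it apart from the other T cell genes in the control section. By grid steps to the nearest T cell positive spot, 0, 1, 2 and 3 or more, the rIL7 sum was 1167, 913, 729 and 763 CPM (12 spots in the last class), and the control sum 525, 443, 397 and 384 CPM. By steps to the nearest spot with 3 or more T cell UMIs, 0, 1, 2, 3 and 4 or more, the rIL7 sum was 1545, 1428, 1130, 928 and 786 CPM, and the control sum 576, 556, 533, 471 and 427 CPM. Edge spots made up 64.4% of the first and 5.63% of the last of these rIL7 classes.

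Spots without T cell UMIs carried nearly the full difference between sections. In T cell negative spots the summed members were 2.10-fold (2.02 to 2.19) higher in the rIL7 section, and 9 of 10 members reached 1.5-fold, against 2.82% of 10352 genes. In interior spots at least 2 steps from any T cell positive spot, 581 control and 152 rIL7 spots, the sum was 376 and 714 CPM, a ratio of 1.90 (1.72 to 2.09). There 5 of the 8 members with 100 UMIs reached 1.5-fold, against 2.87% of 7120 genes. Gbp4 (2.47, 1.99 to 3.07), Iigp1 (2.44) and Igtp (2.23) stayed above 2, while Irgm1 was at 1.08 (0.737 to 1.55). Among T cell negative spots in the lowest of the 3 macrophage classes of each section, the sum was 362 CPM (control) and 785 CPM (rIL7), a ratio of 2.17 (2.02 to 2.33).

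**Figure D4:**
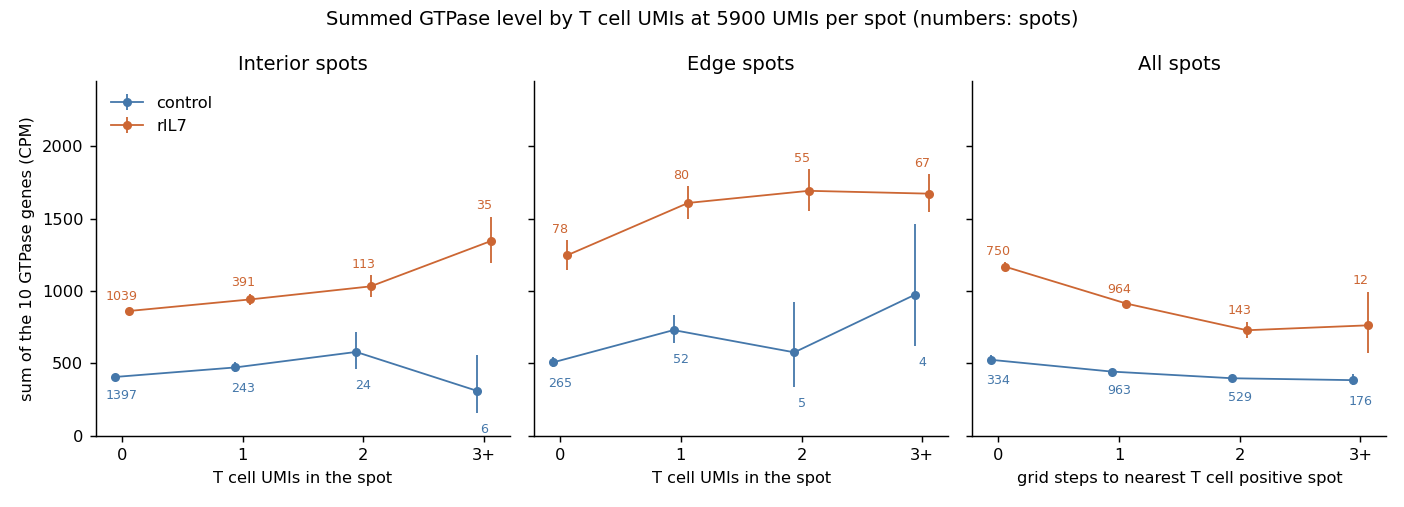
Summed level of the 10 GTPase genes (CPM) in the control (blue) and rIL7 (orange) section, by T cell UMIs in interior spots (left), in edge spots (middle), and by grid steps to the nearest T cell positive spot (right); vertical lines are 95% counting intervals and small numbers count spots. At every class the rIL7 points lie above the control points.

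Interferon gamma itself was scarce. Ifng had 53 control and 142 rIL7 UMIs, or 2.31 and 5.52 CPM, a ratio of 2.39 (1.73 to 3.34). At 5900 UMIs per spot it was seen in 24 control and 53 rIL7 spots, of which 6 and 23 were T cell positive. Among all spots at that depth, 16.7% in the control and 40.1% under rIL7 were T cell positive. Spots with an Ifng UMI had 494 CPM of the summed members against 439 CPM elsewhere in the control, a ratio of 1.13 (0.877 to 1.43). With rIL7 these levels were 1122 and 997 CPM, a ratio of 1.13 (1.01 to 1.25). In the rIL7 interior the levels were 856 and 906 CPM, a ratio of 0.945 (0.815 to 1.09). By steps from an Ifng spot, 0, 1, 2, 3 and 4 or more, the control interior held 534, 587, 497, 494 and 378 CPM. The first class had only 20 spots (410 to 683 CPM), and only the farthest class (364 to 393 CPM) lay below the others. The deepest control ring, steps 15 to 22, held 1 Ifng UMI and the lowest summed level, 333 CPM. Distance from Ifng and depth in the tumor were thus not separated. In the same classes the rIL7 interior held 856, 894, 959, 905 and 866 CPM. At this depth a spot without an Ifng UMI can still hold Ifng RNA.

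Most other GTPase genes of these families were also higher in the rIL7 section. Of 13 further symbols, 9 were matched and 8 had at least 20 UMIs, and 7 of these 8 were at least 1.5-fold higher in the rIL7 section, against 7.69% of genes with 20 UMIs. Their median log2 ratio was 0.88. Gbp2b, which lies between Gbp3 and Gbp2, went from 49.9 to 118 CPM (2.36, 2.20 to 2.52), and Gbp8, next to Gbp9, from 39.8 to 77.3 CPM (1.94, 1.79 to 2.10). Gbp10 had only 59 and 195 UMIs and a ratio of 2.95 (2.19 to 4.02). Irgm2, the regulatory neighbour of Igtp, had a ratio of 1.68 (1.52 to 1.86), and Ifi47 1.65 (1.54 to 1.76). The near-identical effectors Tgtp1 and Tgtp2 read 2.68 (1.96 to 3.71) and 1.37 (1.16 to 1.63), and the split of reads between them is uncertain.

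Upstream of the GTPases, the receptor chains differed little and the kinase Jak2 more. Ifngr1 and Ifngr2, the receptor chains for interferon gamma, had ratios of 1.17 (1.11 to 1.22) and 1.02 (0.951 to 1.103). Jak2, a kinase at that receptor, went from 54.5 to 118 CPM (2.17, 2.03 to 2.32). The kinase Jak1 of the same list, named after its value was seen, had a ratio of 1.21 (1.14 to 1.29). Over all 10 receptor and signalling genes the median log2 ratio was 0.23. Among 6 transcription factors 3 were at least 1.5-fold higher, against 7.69% of genes: Irf1 (1.78, 1.70 to 1.86) and Irf8 (1.92, 1.77 to 2.10), which bind the promoters of interferon-induced genes, and Batf2 (1.73), named after its value was seen. Irf7, a factor of the type I response, was lower in the rIL7 section, with 196 and 167 CPM and a ratio of 0.854 (0.819 to 0.890). Jak2 was lower along the edge of both tumors, with 46.1 CPM against 56.5 CPM inside in the control, a ratio of 0.815 (0.699 to 0.948), and 95.6 CPM against 122 CPM under rIL7, a ratio of 0.780 (0.699 to 0.870).

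Genes listed as targets of interferon gamma were higher in the rIL7 section, while those listed as targets of type I interferon did not differ by the fold used. Which interferon induced these genes or the GTPases was not tested. Of 15 interferon gamma targets, 15 had a ratio above 1 and 8 reached 1.5-fold, with a median log2 ratio of 0.66. Among the 14296 genes with at least 20 UMIs, 7093 had a ratio above 1, 7.69% were higher by 1.5-fold or more and 5.87% lower. The T cell attracting chemokine Cxcl9 went from 56.6 to 170 CPM (3.01, 2.83 to 3.20), the checkpoint ligand Cd274 (PD-L1) from 12.4 to 26.7 CPM (2.15, 1.87 to 2.47), and Cxcl10 from 180 to 265 CPM (1.48, 1.42 to 1.53). Of 15 type I targets, 0 reached 1.5-fold in either direction and 4 had a ratio above 1, with a median log2 ratio of -0.07. The ubiquitin-like modifier Isg15 went from 165 to 115 CPM (0.694, 0.661 to 0.728) and the antiviral gene Ifit3 from 42.7 to 36.1 CPM (0.846, 0.772 to 0.926). The type I ligand Ifnb1, named after its values were seen, had 6 control and 3 rIL7 UMIs (ratio 0.446, 0.0722 to 2.09).

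At the control edge the type I targets were the higher group, and at the rIL7 edge both groups had similar medians. In the control 11 of 15 type I targets and 1 of 14 interferon gamma targets were at least 1.5-fold above the interior, against 3.38% of genes, with median log2 ratios of 0.84 and 0.24. Under rIL7 these counts were 11 of 15 and 8 of 15, against 12.2% of genes, with medians of 0.64 and 0.60. Summed, the type I targets had edge ratios of 1.56 (control) and 1.39 (rIL7), a quotient of 0.894 (0.861 to 0.928). The interferon gamma targets had 1.199 and 1.497, a quotient of 1.25 (1.22 to 1.27). Single genes weigh heavily in these sums. Over the rIL7 section B2m, named after its value was seen, held 2652 of the 4968 CPM of the interferon gamma targets. Bst2 held 555 of the 1215 CPM of the type I targets. Isg15 had an edge ratio of 2.03 (control) and 1.56 (rIL7), and Cxcl9 of 1.38 and 3.48.

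Few inhibitors and partners of the pathway differed by the fold used. Socs1, which blocks JAK kinases, had a ratio of 1.196 (1.09 to 1.32), Socs3 1.75 (1.65 to 1.86, named after its value was seen), and Usp18, which removes ISG15 and restrains type I signalling, 0.642 (0.581 to 0.709). These were 1 higher and 1 lower of 5 inhibitors past 1.5-fold, against 7.69% and 5.87% of genes. Of 11 genes for autophagy and ubiquitin-like conjugation, through which GBP and IRG proteins reach their target membranes, 0 differed by 1.5-fold, with a median log2 ratio of 0.00. Of 8 inflammasome and cell death genes 2 were at least 1.5-fold higher, Nlrp3 (1.55, 1.21 to 2.01) and Ninj1 (2.70, 2.45 to 2.98), both named after their values were seen. Casp4, the caspase that senses lipopolysaccharide which GBP proteins expose, had a ratio of 1.12 (1.03 to 1.23), and its substrate Gsdmd 1.02 (0.984 to 1.06).

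**Figure D5:**
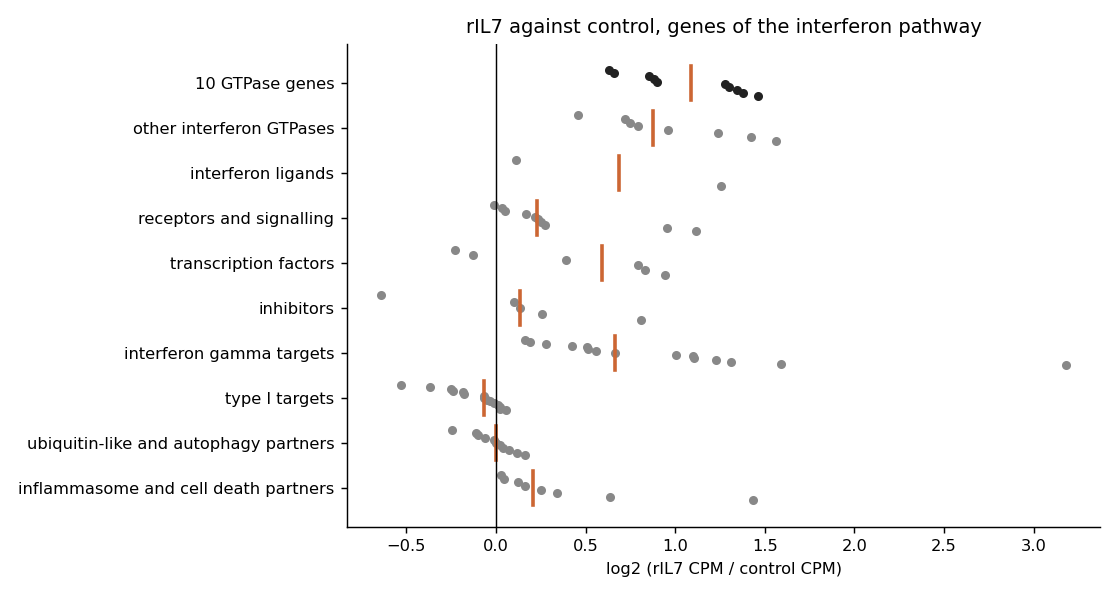
Log2 ratio of CPM, rIL7 over control, for each gene with at least 20 UMIs in the 10 GTPase genes (black) and in lists of the interferon pathway (grey); orange lines mark the median of a list. The GTPase genes and the interferon gamma targets lie right of 0, while the type I targets cluster around 0.

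Across spots, single members were weakly related to each other, while touching spots were moderately alike in the sum of the members. Spearman's rho between pairs of members, over 45 pairs at 5900 UMIs per spot, had a median of 0.08 in the control (0.00 to 0.14, 2002 spots) and 0.10 in the rIL7 section (0.01 to 0.21, 1869 spots). Spots share library, depth and neighbours, so these values are descriptions, and values this low are no finding. At this depth most members were seen in a minority of spots, Gbp5 in 2.35% of control and 6.37% of rIL7 spots. Counts this sparse limit how high rho can be, so low values do not show that members vary apart. Moran's I over touching spots, which is near 0 for a level without spatial order, was 0.278 for the control sum and 0.389 for the rIL7 sum. The sum holds more UMIs per spot than any single member, so its index cannot be set directly against those of single genes. Among single members of the rIL7 section it was highest for Iigp1 (0.148) and Gbp4 (0.143) and lowest for Gbp9 (0.0104) and Gbp5 (0.0221), against a median of 0.00752 and a 95th percentile of 0.0735 over all genes.

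The genes whose level across spots was most like the summed members differed in part between the sections. In the control, among 7570 genes with at least 20 CPM, the 10 with the highest rho were Cxcl10 (0.32), Cd74 (0.30), Ly6a (0.28), Irf7 (0.27), Isg15 (0.27), Bst2 (0.25), H2-Ab1 (0.23), Oasl2 (0.23), Ifi27l2a (0.23) and Ifi44 (0.22). Among 7610 genes of the rIL7 section they included Cd74 (0.45), Cxcl10 (0.41), H2-Ab1 (0.39), Cxcl9 (0.38), H2-Aa (0.36), Ly6a (0.34), Tmsb4x (0.34), H2-Eb1 (0.34) and AW112010 (0.32). The lists share 4 genes, Cd74, Cxcl10, H2-Ab1 and Ly6a. In the control list alone stood the type I targets Isg15, Bst2, Oasl2 and Ifi44, and in the rIL7 list alone the MHC class II genes H2-Aa and H2-Eb1 with Cxcl9. For the class II genes this rests on the cut at 10. In the control H2-Aa stood at rank 13 (0.211) and H2-Eb1 at rank 18 (0.206). Against the lists, rho of the summed members was 0.47 with interferon gamma targets, 0.32 with type I targets, 0.28 with macrophage markers, 0.23 with T cell markers and -0.13 with CT26 markers in the rIL7 section, and 0.31, 0.34, 0.14, 0.09 and -0.11 in the control.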

How the data were processed

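Spatial RNA was measured on 1 control and 1 rIL7 section. Per the submitters' processing notes, the authors counted genes with Space Ranger 1.1.0 against mm10. Each deposited matrix gives unnormalized UMI counts for genes by spots, and spot barcodes, gene identifiers, the in-tissue flag and the array positions were used as deposited. Image scale factors were not used.

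Spots over tissue with under 10% mitochondrial UMIs and more than 200 genes were kept, as in the methods of the study, which removed 2 control spots and 1 rIL7 spot. Counts were summed over spots and divided by their total (CPM). With 1 section per group no test was run. Intervals are 95%, exact Poisson for a level, Clopper-Pearson (exact binomial) for shares and for ratios of CPM, and a normal approximation on the log scale for a quotient of ratios, and they cover counting error only. Background shares are over genes with at least 100 UMIs in the groups compared, list medians over genes with at least 20. A gene at 0 in a group was set to 3 UMIs for list medians. The edge was found on the array grid. For the relation to T cells, spots were thinned to 5900 UMIs, also with 20 other draws added after the data were seen. Scripts used Python 3.11.15, numpy 2.4.6, scipy 1.17.1 and pandas 2.3.3, and were tested on simulated data.

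Alternatives were other spot filters, TMM (edgeR 4.0.16) and median-of-ratios (DESeq2 1.42.0) scaling of the deposited counts, totals that leave out mitochondrial, haemoglobin and ribosomal protein genes, equal weight per spot, interior or edge spots alone, other edge widths, other definitions of T cell positive spots, a sum without Gbp4, and a fold of 2. The members, lists and tests were chosen with earlier results of these data known. Named are the 10 members, set pathway genes with at least 20 UMIs, and the 10 genes of each section whose level across spots was most like the summed members. Gene spans are those of RefSeq on GRCm38, matched by symbol. The symbols Gbp11, Gm12250, Mx1 and Mx2 were not matched. Sequences of the members were not used here. A pathway gene covered by the naming rule is not reported here.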

Additional observations from a re-analysis of the deposited data

Results flagged for a closer look

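For Gbp9 the relation to T cell positive spots lay on opposite sides of 1 in the 2 sections. Its ratio of positive to negative spots was 1.40 for the control (85 UMIs in positive spots) and 0.930 for rIL7 (0.783 to 1.103). The difference between the sections was not tested. Without thinning both ratios were above 1, at 1.28 and 1.07, and the medians of 20 other thinning draws were 1.31 and 1.12.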

How the results depend on the processing

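No paired analysis was possible because each group has 1 section. On the log2 scale, the ratio of the summed members between sections (1.11) was 1.04 in interior spots, 1.46 in edge spots and 1.05 without Gbp4. The number of members past the fold went from 10 to 5 at a fold of 2. The edge ratio (0.34 in the control, 0.76 in rIL7) was 0.46 in the control with equal weight per spot and 0.62 in rIL7 for an edge of 1 step. The T cell ratio was 0.059 in the control (from 0.31) with Trbc2 and Cd4 added. In rIL7 (from 0.39) it was 0.54 with at least 2 T cell UMIs, 0.33 without thinning, 0.20 in interior spots, 0.24 with Trbc2 and Cd4 and 0.25 within macrophage classes. Over 20 other thinning draws it ran from 0.18 to 0.38 in the control and from 0.37 to 0.49 in rIL7. For Gbp9 in the control it went from 0.49 to -0.11 with at least 2 T cell UMIs, and in rIL7 from -0.10 to 0.10 without thinning and to 0.18 with at least 2 T cell UMIs. In interior spots, list medians were 0.91 for other GTPases, 0.43 for ligands, 0.19 for receptors and signalling, 0.56 for transcription factors, 0.11 for inhibitors, 0.58 for interferon gamma targets, -0.02 for type I targets, 0.02 for autophagy partners and 0.12 for inflammasome partners. The cause of these shifts was not tested beyond the change of spots, genes or threshold each names. No interval covers differences between animals, and depth limits the scarce Gbp5 and Ifng.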

Other observations

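Markers of some other immune cells also differed between the sections. NK cell markers summed to 22.1 CPM (control) and 46.5 CPM (rIL7), with 4 of 5 genes at least 1.5-fold higher, dendritic cell markers to 25.2 and 34.8 CPM (3 of 5 genes), and neutrophil markers to 136 and 247 CPM (2 of 4 higher, 1 lower), against 7.69% of genes higher and 5.87% lower by that fold. In interior spots alone 1 of 4 dendritic cell genes was at least 1.5-fold higher, against 832 of 13904 genes. Monocyte markers (154 CPM control, 144 CPM rIL7) and the scarce B cell markers (3.09 and 3.19 CPM) differed little in sum. Across spots at 5900 UMIs, the NK cell, dendritic cell and neutrophil lists were weakly or not related to the summed GTPases. In that order, rho was 0.14, 0.05 and -0.10 over 1869 rIL7 spots. Nos2, the inducible nitric oxide synthase of activated macrophages, had 18 control and 183 rIL7 UMIs, a ratio of 9.07 (5.58 to 15.6), and is named after its values were seen.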
